A study of Mus musculus with 12 samples.

Results

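The genes described here encode the receptors of the interleukins other than those of the interleukin-1 subfamily, together with the paired chains of the interleukin-18 receptor. They were followed in dendritic cells (DC) of C57BL/6 mice on Affymetrix Mouse Exon 1.0 ST arrays. Of 33 listed receptor genes, 26 had a probe set annotated with that gene symbol alone, among 14996 such probe sets and 23332 probe sets in all. Il2rb, Il2rg, Il6ra, Il11ra1, Il31ra, Il13ra2 and Il20rb had none and are not described. The 26 genes held 27 probe sets, since Il17rd had a pair, and Il17rd is given by its brighter probe set. Cre+ mice carried a Cre-driven deletion of Tgfbr2, which encodes the type II TGF-beta receptor, targeted to DC, and Cre- mice served as controls and were labelled healthy for both tissues. Untreated cells came from the spleen, taken as CD11c+ cells by magnetic sorting, or from the mesenteric lymph nodes (MLN), taken as CD11c+CD103+ cells by flow sorting. Each of the 4 tissue and genotype groups had 3 arrays, and each MLN array came from a pool of 4 mice. The promoter that drives Cre, the age of the mice, whether the Cre- mice carried the floxed alleles and the number of mice behind a spleen array are not given in the sources used here. For the spleen, p-values therefore measure the spread between arrays, which may be technical.

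Interleukin receptors are assembled from a chain that recognises the cytokine and a chain that is often shared. The common gamma chain serves the receptors for IL-2, IL-4, IL-7, IL-9, IL-15 and IL-21, gp130 (Il6st) serves those for IL-6 and IL-27, and the interleukin-12 receptor beta 1 chain serves both interleukin-12 and interleukin-23. Most of these receptors signal through Jak kinases and Stat transcription factors, whereas the interleukin-17 receptors use the adaptor Act1 (Traf3ip2) and the interleukin-18 receptor uses Myd88. In DC these receptors are known for sensing interleukin-10, for holding interleukin-15 on the cell surface through Il15ra for presentation to lymphocytes, and for secreting the interleukin-22 binding protein Il22ra2.

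The values are log2 expression values, so that a difference of 1 is a 2-fold change. The median of an array was 7.03 to 7.08 for spleen and 6.74 to 6.89 for MLN, with an SD across probe sets of 2.37 to 2.42 and 1.80 to 1.91. Levels set across tissues therefore depend on the scaling. Cd74 and H2-Aa, genes of antigen presentation, had group means of at least 12.81 in all groups, the DC growth factor receptor gene Flt3 of at least 10.24 and the DC transcription factor gene Zbtb46 of at least 7.53. Itgae, which encodes CD103, averaged 6.94 in spleen Cre- and 8.0 in MLN Cre- arrays. In Cre+ mice none of the 13 measured conventional DC markers, which include Itgae, was called higher in MLN than in spleen. The largest of their differences there was 0.42. Itgax had no probe set of its own. Markers of other cells were also present. The 12 measured T cell markers had a mean level of 9.37 to 9.51 over the MLN Cre- arrays, and the 11 B cell markers a mean level of 10.12 to 10.28 over the same arrays. In these bulk samples, more cells of a type and more RNA per cell cannot be told apart. Tgfbr2 itself averaged 10.94 in spleen Cre- and 10.70 in spleen Cre+, and 9.58 and 9.46 in MLN, and neither difference was called (adjusted p = 0.138 and 0.524). The Y-linked Eif2s3y averaged 9.91 in spleen Cre- and 3.17 in spleen Cre+ arrays, so that sex and genotype cannot be told apart in spleen.

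Across the 12 arrays the receptor genes covered a wide range of values. A gene is called dim here when all 4 of its group means lay below 6.4, which held for 4 of the 26 genes (15.4%) and for 33.2% of all probe sets. The dim genes were Il20ra and Il22ra1, which encode chains of the receptors for interleukin-20 and interleukin-22, the interleukin-22 binding protein gene Il22ra2, and Il17rd, an interleukin-17 receptor homologue known as an inhibitor of fibroblast growth factor signalling. The nearest value inside the limit was the highest group mean of Il22ra2, 6.37, and the nearest outside were those of Il17rb, 6.76, and Il17re, 6.81. Of the remaining 22 genes, Il4ra, Il7r, Il21r and Il6st had means above 10 in every group.

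**Figure D1:**
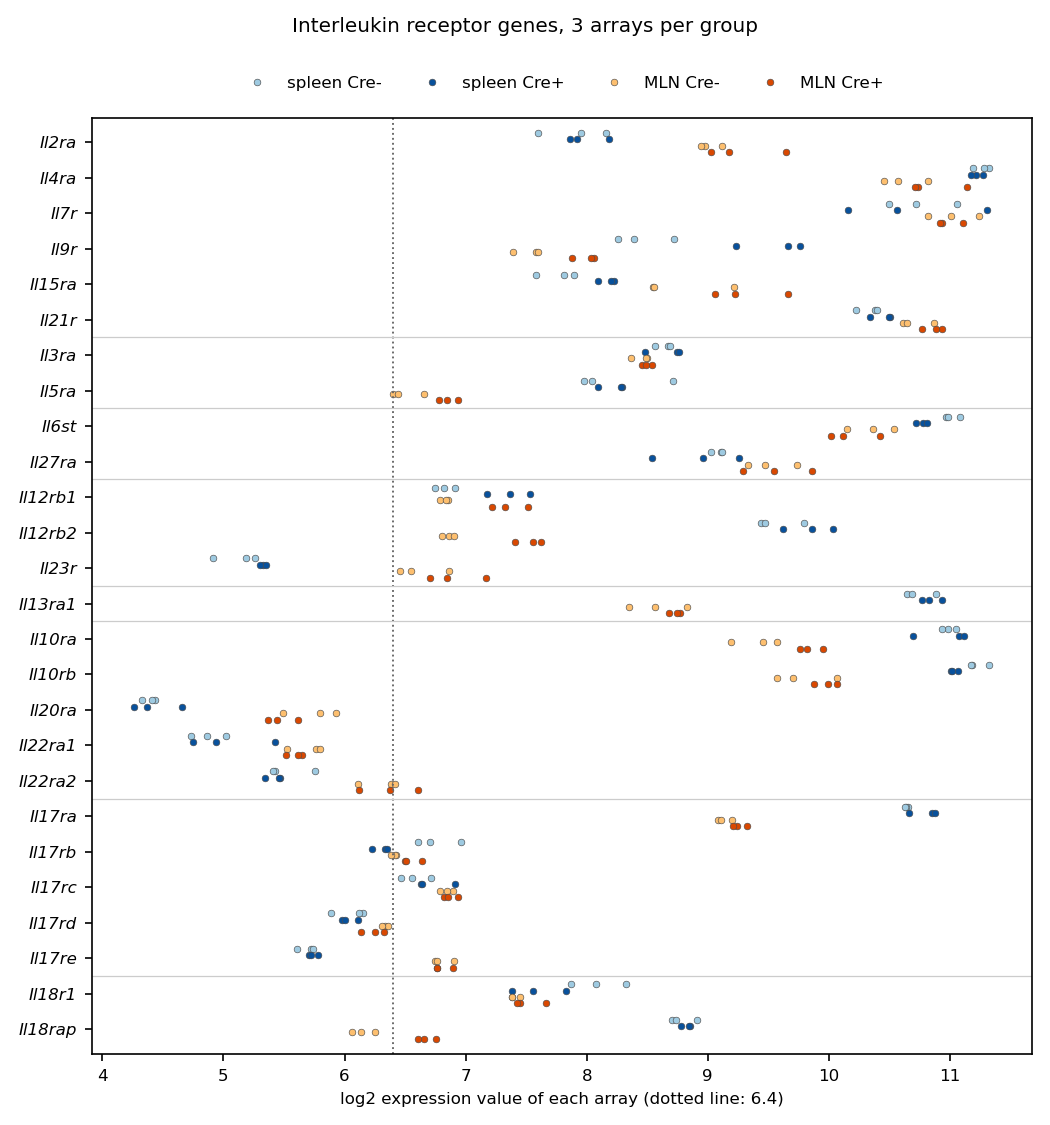
Log2 expression value (horizontal axis) of the 26 measured interleukin receptor genes (rows, by receptor group) on each of the 12 arrays, coloured by tissue and genotype, with a dotted line at 6.4. Il9r and Il12rb1 show the Cre+ arrays to the right of the Cre- arrays in both tissues, and Il12rb2, Il18rap and Il13ra1 lie further left in MLN than in spleen.

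In splenic DC, 3 of the 26 receptor genes changed between Cre+ and Cre- mice: Il9r and Il12rb1 rose and Il17rb fell. This comparison called 2.17% of all probe sets, 1.24% as higher and 0.93% as lower, at an adjusted p under 0.05 in limma. Il9r encodes the specific chain of the interleukin-9 receptor. Its level was 8.26, 8.39 and 8.72 in the Cre- arrays and 9.66, 9.24 and 9.76 in the Cre+ arrays. All Cre+ arrays lay above all Cre- arrays. The log2 difference was 1.09 (SE 0.153, adjusted p = 0.0091), or 2.13-fold, and it stayed called when any of the 12 arrays was left out, with differences from 0.99 to 1.25 and adjusted p from 0.00563 to 0.0361. With the 6 spleen arrays fitted alone, the adjusted p was 0.0969.

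Il12rb1 encodes the chain shared by the receptors for interleukin-12 and interleukin-23. It measured 6.75, 6.92 and 6.83 in spleen Cre- arrays and 7.17, 7.37 and 7.53 in spleen Cre+ arrays, again without overlap. The difference was 0.53 (SE 0.107, adjusted p = 0.0354), or 1.44-fold. Il17rb encodes the chain that binds interleukin-25 and pairs with Il17ra. Its values were 6.60, 6.70 and 6.96 in Cre- and 6.34, 6.23 and 6.35 in Cre+ arrays, so the Cre+ arrays lay lowest. All of these Cre+ values were below 6.4, the limit for dim genes. Il17rb fell by 0.45 (SE 0.0966, adjusted p = 0.0418). Both calls were near the threshold. Il12rb1 was called in 4 of the 12 omissions of an array and Il17rb in 1, after quantile normalization their adjusted p was 0.0548 and 0.0923, and with the spleen arrays alone 0.132 and 0.169.

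The other 23 receptor genes were not called in spleen. Over all 26, the median difference was 0.04 and 15 were positive, against a median of 0.01 and 52.9% positive among all probe sets. Il18r1, the chain that binds interleukin-18, had the largest difference among the genes not called, with 8.08, 7.87 and 8.33 in Cre- and 7.38, 7.83 and 7.56 in Cre+ arrays. The Cre+ arrays were lower, at a difference of -0.50 (SE 0.138, adjusted p = 0.0973). Its partner chain gene Il18rap differed by 0.04 (95% interval -0.15 to 0.23). In the gp130 group, Il6st had -0.24 (SE 0.122, adjusted p = 0.366) and the interleukin-27 receptor gene Il27ra -0.17. Il10rb, shared by the receptors for interleukin-10 and interleukin-22, had -0.19 (adjusted p = 0.472), while the ligand-binding Il10ra had -0.03. Il13ra1, an X-linked gene whose product pairs with Il4ra, had 0.10 (adjusted p = 0.742). Il3ra, which encodes the interleukin-3 receptor alpha chain, had 0.02 (adjusted p = 0.939). Without regard to the test, 5 genes had all Cre+ arrays above all Cre- arrays (12.4% of all probe sets) and 4 had them below (9.37%).

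**Figure D2:**
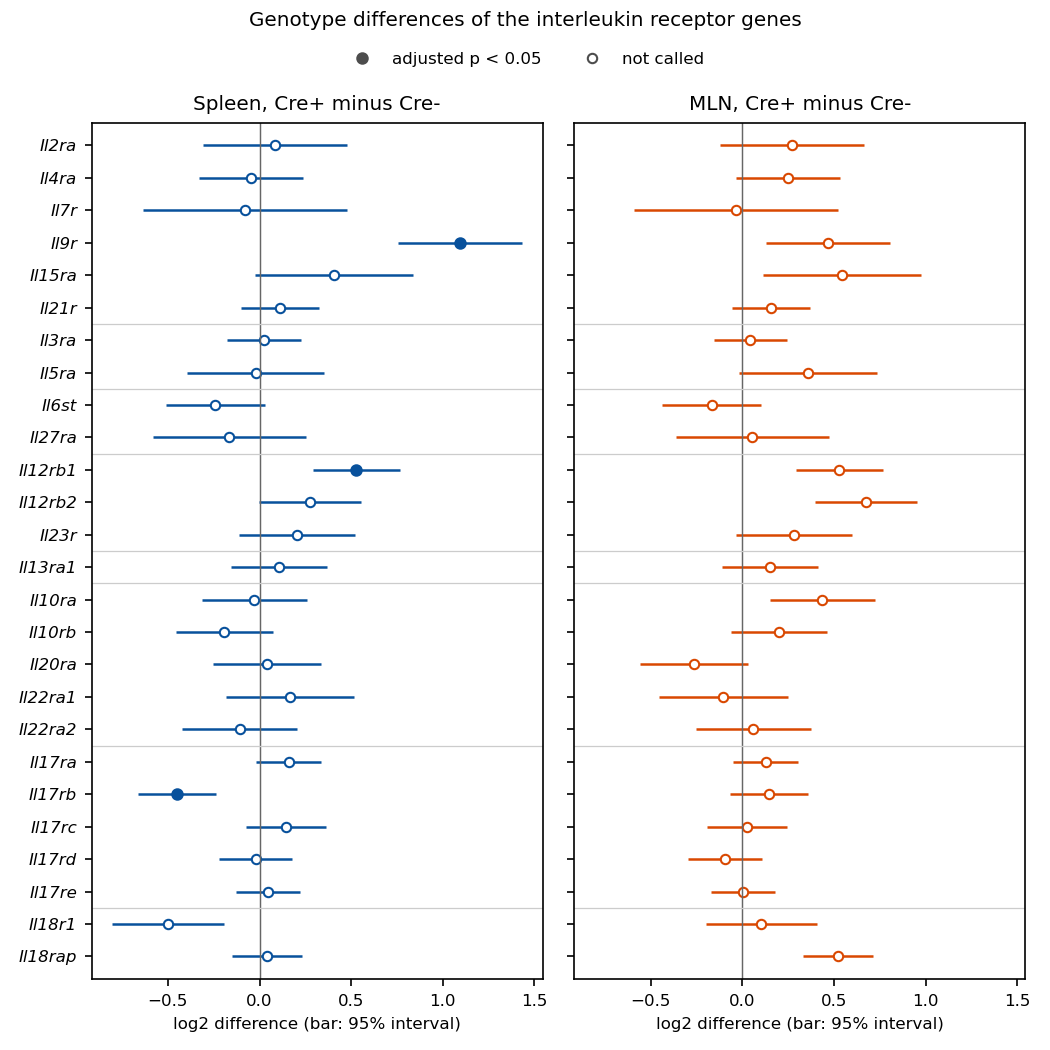
Log2 difference between Cre+ and Cre- arrays (points) with its 95% interval from the limma fit (bars), 3 arrays per group, for each receptor gene in spleen (left) and MLN (right). Filled points mark adjusted p under 0.05 over all probe sets, which in spleen are Il9r, Il12rb1 and Il17rb, and no MLN point is filled.

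Markers of other cells moved with genotype in spleen. Of 13 neutrophil markers 8 rose, led by the granule protein gene Ngp by 2.70, the siderophore-binding Lcn2 by 2.27 and the iron-binding Ltf by 2.29, and the log2 of their summed level ran from 12.68 to 12.94 in Cre- and from 13.62 to 14.68 in Cre+ arrays. Of 14 macrophage markers 3 fell, the scavenger receptor gene Cd163 by 1.28, the receptor gene Mertk by 0.79 and the mannose receptor gene Mrc1 by 0.76, with summed levels of 14.74 to 15.11 and 14.45 to 14.63. The list of 8 plasmacytoid DC markers includes the receptor gene Il3ra. Among them the cell surface gene Bst2 and the chemokine receptor gene Ccr9 fell, by 0.65 and 0.82. Of 11 B cell markers Cd22 rose by 0.54, and none of 12 T cell, 8 NK and innate lymphoid or 8 mast cell and basophil markers was called (limma; the smallest adjusted p were 0.178, 0.571 and 0.123). The summed levels of the B cell list overlapped between genotypes, at 14.88 to 15.17 and 14.98 to 15.28, as did those of the T cell list, at 12.80 to 13.08 and 12.52 to 13.45. The part of these cells and of sex in the changes of Il9r, Il12rb1 and Il17rb was not tested. Spleen Cre+ replicate 1 had the lowest mean level of T cell markers among the spleen arrays, 8.35. The interleukin-7 receptor gene Il7r, which T cells also express, was lowest in the same array, at 10.15 against 10.49 to 11.31 in the other 5. Spleen Cre+ replicate 2 had the highest mean level of T cell markers, 9.38, with an Il7r value of 10.56. The part of T cells in the values of Il7r was not tested.

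**Figure D3:**
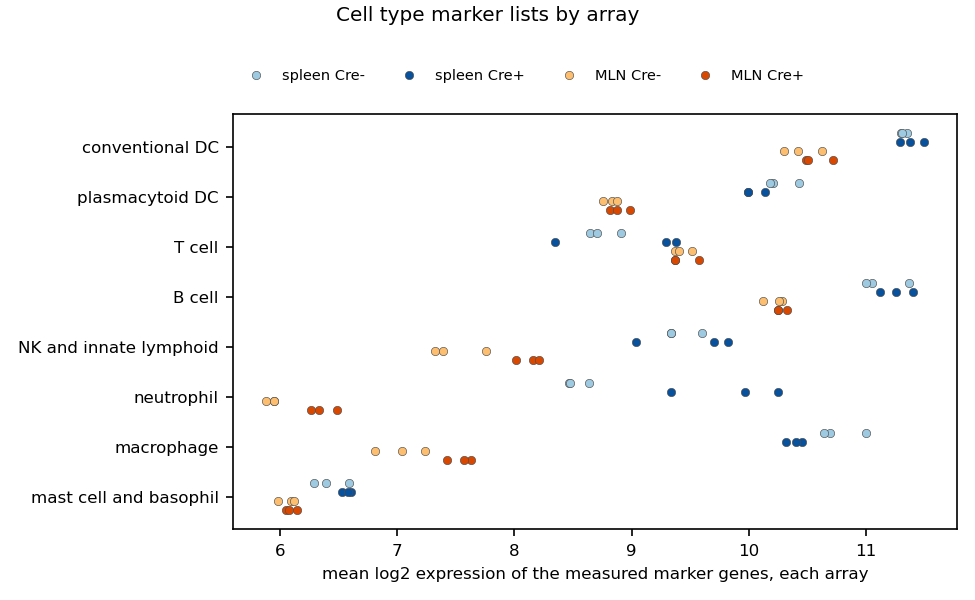
Mean log2 expression (horizontal axis) of the measured genes of 8 cell type marker lists (rows) on each array, coloured by tissue and genotype, 3 arrays per group. Neutrophil markers are higher in Cre+ than in Cre- arrays of both tissues without overlap. NK and macrophage markers are higher in MLN Cre+ than in MLN Cre- arrays without overlap. Macrophage and plasmacytoid DC markers are lower in spleen Cre+ than in spleen Cre- arrays, also without overlap.

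In CD103+ DC of the MLN, no receptor gene was called between Cre+ and Cre- mice in limma, where 0.0857% of all probe sets were called, 0.0729% as higher and 0.0129% as lower. An unadjusted p under 0.05 was found for 6 of the 26 genes, against 11.9% of all probe sets. The smallest adjusted p was that of Il18rap, the signalling chain of the interleukin-18 receptor. Its level was 6.25, 6.06 and 6.14 in Cre- and 6.66, 6.75 and 6.61 in Cre+ arrays. All Cre+ arrays were higher, and the difference was 0.52 (SE 0.0863, adjusted p = 0.074). It was called after quantile normalization (0.62, adjusted p = 0.0416) and with array weights (0.59, adjusted p = 0.00505). It was also called among probe sets with 1 symbol (adjusted p = 0.029) and among those with a group mean of at least 6.4 (adjusted p = 0.0425). Its own MLN Cre- mean, 6.15, lay below 6.4. It passed that filter only through its other groups, at 6.67 in MLN Cre+, 8.79 in spleen Cre- and 8.82 in spleen Cre+ arrays. It was not called after the median shift (0.45, adjusted p = 0.189), with the MLN arrays alone (adjusted p = 0.2004) or in any omission of an array (adjusted p from 0.0768 to 0.312).

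The interleukin-12 receptor genes gave the next smallest p-values. Il12rb2, whose product signals through Stat4, had values of 6.86, 6.90 and 6.80 in MLN Cre- and 7.40, 7.56 and 7.62 in MLN Cre+ arrays. The genotypes did not overlap, with a difference of 0.67 (SE 0.126, adjusted p = 0.112). Il12rb1 measured 6.78, 6.85 and 6.83 in Cre- and 7.22, 7.32 and 7.51 in Cre+ arrays, a difference of 0.53 (SE 0.107, adjusted p = 0.128). Quantile normalization brought both past the threshold, each at an adjusted p of 0.0449, as did array weights, each at 0.0151. After the median shift Il12rb1 had 0.46 (adjusted p = 0.235) and Il12rb2 0.60 (adjusted p = 0.189). With the MLN arrays alone their adjusted p were 0.223 and 0.144, and neither was called in any omission of an array. Il23r, the chain specific for interleukin-23, had 0.28 (adjusted p = 0.454) with overlapping arrays.

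**Figure D4:**
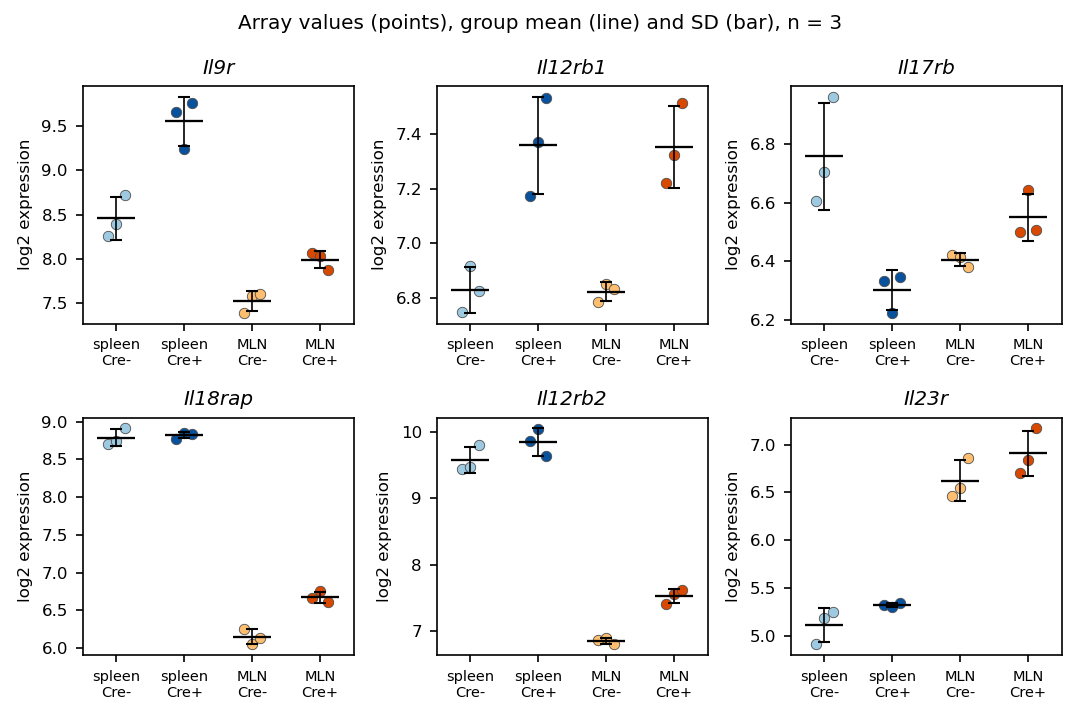
Log2 expression of 6 receptor genes on each array (points), with the group mean (line) and SD (bar), n = 3; each panel has its own vertical axis, which does not start at 0. Il9r and Il12rb1 are higher in Cre+ arrays of both tissues, Il17rb is lower in Cre+ arrays of the spleen, and Il18rap and Il12rb2 are far lower in MLN than in spleen.

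Of the other receptors in MLN, Il9r had 7.39, 7.58 and 7.60 in Cre- and 8.06, 8.04 and 7.88 in Cre+ arrays. The Cre+ arrays were higher, by 0.47 (SE 0.153, adjusted p = 0.341). Il15ra, which presents interleukin-15, had 0.54 (SE 0.196, adjusted p = 0.373) with overlapping arrays, and Il10ra 0.44 (SE 0.13, adjusted p = 0.303) without overlap. Il5ra, the interleukin-5 receptor alpha chain gene, had 0.36 (adjusted p = 0.434), and Il2ra, which encodes CD25, 0.27 (adjusted p = 0.537). In the interleukin-17 group, the shared chain gene Il17ra had 0.13 (adjusted p = 0.525), and in the gp130 group Il6st had -0.17 (adjusted p = 0.577). Il18r1, the partner chain gene of Il18rap, had 0.10 (adjusted p = 0.772) with overlapping arrays. Il13ra1 had 0.15 (adjusted p = 0.602), also with overlapping arrays. In all, 21 of the 26 genes had a positive difference and the median was 0.15. Among all probe sets 66.7% were positive and the median was 0.08. All Cre+ arrays lay above all Cre- arrays for 8 genes (13.4% of all probe sets) and below for none (4.29%).

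Markers of NK and innate lymphoid cells, which use the receptors for interleukin-12 and interleukin-18, also separated the MLN arrays. The difference was positive for all 8 measured markers, at a median of 0.66, and the log2 of their summed level ran from 10.41 to 10.84 in Cre- and from 11.09 to 11.24 in Cre+ arrays. None of them was called (limma; the smallest adjusted p was 0.0856, for the transcription factor gene Tbx21 at 0.74). All 14 macrophage markers had positive differences and Adgre1, which encodes F4/80, rose by 0.90, with summed levels of 10.97 to 11.45 and 11.53 to 11.76. Of 13 neutrophil markers 11 had positive differences and none was called (limma; 5 at an unadjusted p under 0.05, and the smallest adjusted p was 0.121, for Ngp at 1.1), with summed levels of 9.69 to 9.82 and 10.14 to 10.32. The part of these cells in the differences of Il12rb1, Il12rb2 and Il18rap was not tested.

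Whether the genotype difference itself differed between the tissues was tested with the interaction contrast, MLN difference minus spleen difference. It called 0.163% of all probe sets (0.137% with a positive and 0.0257% with a negative value) and none of the 26 receptor genes in limma, with an unadjusted p under 0.05 for 7 genes, against 12.2% of all probe sets. Il17rb had the smallest adjusted p, at 0.60 (SE 0.137, adjusted p = 0.132). Its Cre+ arrays were all below the Cre- arrays in spleen, whereas in MLN they were 6.5, 6.64 and 6.51 against 6.42, 6.42 and 6.38, all above. Opposite sides of this kind held for 1 receptor gene and 1.57% of all probe sets. The Il17rb values in MLN lay close to 6.4, the limit for dim genes. Il18rap had 0.49 (adjusted p = 0.159), Il18r1 0.60 (adjusted p = 0.256) and Il9r -0.63 (adjusted p = 0.288). For Il12rb1 the differences of 0.53 in spleen and 0.53 in MLN left an interaction of 0.0005, with a 95% interval of -0.33 to 0.34. Il9r, Il12rb1 and Il17ra had all Cre+ arrays above all Cre- arrays in both tissues, which held for 2.49% of all probe sets.

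Between the tissues the receptor genes differed widely. In Cre- mice 22 of the 26 were called between MLN and spleen, 10 higher and 12 lower in MLN, where 75.3% of all probe sets were called, 26.3% as higher and 49% as lower. In Cre+ mice 10 were higher and 10 lower, where 71.7% of all probe sets were called, 26.5% as higher and 45.2% as lower. The arrays of the tissues did not overlap for 11 genes higher and 13 lower in Cre- mice (27.4% and 49.7% of all probe sets) and for 11 and 10 in Cre+ mice (28.3% and 45.8%). After quantile normalization the calls were 16 higher and 8 lower in Cre- mice, and 16 and 6 in Cre+ mice, so the balance between higher and lower depended on the scaling. Tissue, sorting method, surface gate and normalization cannot be told apart in this contrast. Sex is a further difference, since the Y-linked Eif2s3y averaged 7.42 in MLN Cre- and 7.60 in MLN Cre+ arrays, between its spleen values of 9.91 and 3.17. The median difference of all probe sets was -0.36 as deposited, -0.06 after a shift of all arrays to 1 median and 0.03 after quantile normalization, which called 8027 probe sets higher and 6935 lower, in place of 6134 and 11425 as deposited. In Cre+ mice the split was 7147 and 6388, in place of 6188 and 10537. For the receptor genes, only directions called under all 3 scalings are named here as higher or lower. In Cre- mice these were 10 genes higher and 7 lower in MLN, and 9 genes depended on the scaling. In both genotypes alike, 7 genes were higher and 5 were lower.

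**Figure D5:**
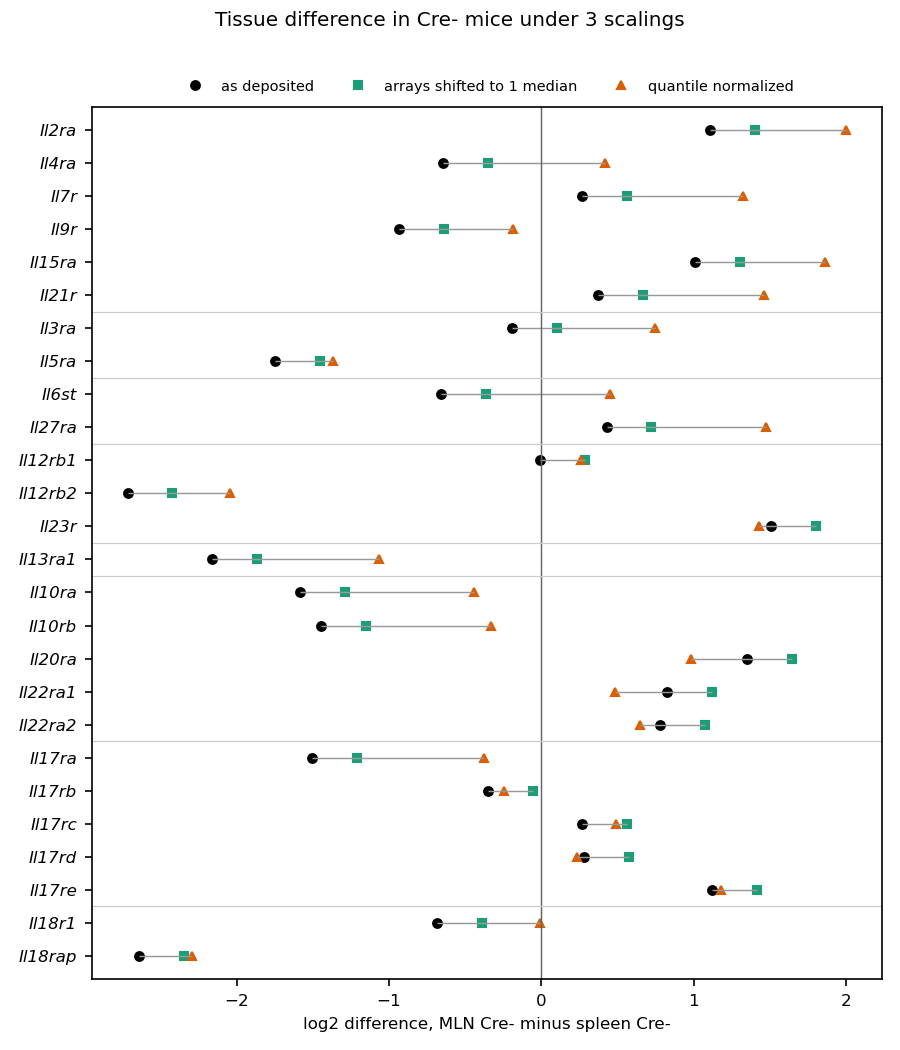
Log2 difference between MLN Cre- and spleen Cre- arrays (horizontal axis) for each receptor gene, as deposited (circles), after a shift of each array to 1 median (squares) and after quantile normalization (triangles), 3 arrays per group. Il12rb2, Il18rap, Il13ra1 and Il5ra stay at or below -1.06 under the 3 scalings, while Il4ra, Il6st and Il3ra lie on both sides of 0.

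The genes lower in MLN in both genotypes were Il12rb2, Il18rap, Il13ra1, Il17ra and Il5ra. Il12rb2 measured 9.44, 9.47 and 9.80 in spleen Cre- arrays against 6.86, 6.90 and 6.80 in MLN Cre- arrays. No array overlapped, and the difference was -2.71 (SE 0.126, adjusted p = 2.99e-08), or -2.04 after quantile normalization. Il18rap was lower by a similar size, with 8.71, 8.74 and 8.91 in spleen Cre- and 6.25, 6.06 and 6.14 in MLN Cre- arrays, a difference of -2.64 (SE 0.0863, adjusted p = 7.87e-09) or -2.29 after quantile normalization. Il13ra1 differed by -2.16 and -1.06 on these scales, Il5ra by -1.75 and -1.37, and Il17ra by -1.51 and -0.37. NK and innate lymphoid markers were lower in MLN too, 7 of 8 called in Cre- mice with a median of -2.02 as deposited, and 14 of 14 macrophage markers were lower with a median of -3.83. The marker lists were compared on the deposited scale alone, where 49% of all probe sets were called lower. Lower calls also held there for 11 of 13 neutrophil markers (median -2.90) and 7 of 8 plasmacytoid DC markers (-1.49). The same held for 10 of 11 B cell markers (-1.08) and 11 of 13 conventional DC markers (-0.87). The part of these cells, and of sex in the X-linked Il13ra1, in the receptor differences was not tested.

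The genes higher in MLN in both genotypes were Il2ra, Il15ra, Il21r, Il23r, Il17re, Il20ra and Il22ra2. Il2ra measured 7.60, 7.95 and 8.16 in spleen Cre- and 8.98, 8.95 and 9.11 in MLN Cre- arrays. The MLN arrays were all higher, by 1.11 (SE 0.178, adjusted p = 0.00017) as deposited and by 2.00 after quantile normalization. Il15ra had 1.01 and 1.86 on these scales, and the interleukin-21 receptor gene Il21r 0.37 and 1.46. T cells also express Il2ra and Il21r. On the deposited scale alone, T cell markers were called higher for 9 of 12 genes, with a median of 0.78, beside 26.3% of all probe sets. The part of T cells in these values was not tested. Il23r measured 4.92, 5.19 and 5.26 in spleen Cre- and 6.46, 6.55 and 6.86 in MLN Cre- arrays, a difference of 1.5 (SE 0.143, adjusted p = 2.96e-06) or 1.43 after quantile normalization. Il17re, the receptor gene for interleukin-17C, had 1.12 and 1.18. The 6 receptor genes with a spleen Cre- mean below 6.4, namely Il23r, Il17re and the 4 dim genes, were all higher in MLN, as were 75.3% of all probe sets below that level (61.7% after quantile normalization).

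Scaling decided the sign for several receptors, and the size or the call for others. Il4ra, the chain shared by the receptors for interleukin-4 and interleukin-13, differed by -0.65 as deposited (adjusted p = 0.000789) and by 0.42 after quantile normalization (adjusted p = 0.00215). Il6st had -0.66 and 0.45, and Il3ra -0.19 and 0.75. Il10ra and Il10rb, the chains of the interleukin-10 receptor, had -1.58 and -1.45 as deposited and -0.44 and -0.33 after quantile normalization in Cre- mice. In Cre+ mice the quantile values of Il10ra and Il10rb were -0.06 and 0.01, and neither was called.

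Il12rb2 and Il23r are neighbouring protein-coding genes on chromosome 6 in the RefSeq annotation, and they differed between the tissues in opposite directions under each of the 3 scalings. Il9r and Il17rb were called in opposite directions in spleen. The promoter windows of these 4 genes, from RefSeq (GRCm38.p6), are shown to let those gene pairs be compared at their start sites. Each line is a promoter of 300 bases, 5′ to 3′ on the gene's strand. Capitals mark the letters TTCNNNGAA, the palindromic core that Stat factors bind.
Il9r, chr11:32200230-32200529, minus strand: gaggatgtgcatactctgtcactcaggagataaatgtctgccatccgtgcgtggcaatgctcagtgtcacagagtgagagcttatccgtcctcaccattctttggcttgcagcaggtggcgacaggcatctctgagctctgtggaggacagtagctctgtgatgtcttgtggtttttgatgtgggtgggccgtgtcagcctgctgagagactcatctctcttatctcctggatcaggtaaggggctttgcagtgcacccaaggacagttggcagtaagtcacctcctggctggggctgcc
Il17rb, chr14:30008847-30009146, minus strand: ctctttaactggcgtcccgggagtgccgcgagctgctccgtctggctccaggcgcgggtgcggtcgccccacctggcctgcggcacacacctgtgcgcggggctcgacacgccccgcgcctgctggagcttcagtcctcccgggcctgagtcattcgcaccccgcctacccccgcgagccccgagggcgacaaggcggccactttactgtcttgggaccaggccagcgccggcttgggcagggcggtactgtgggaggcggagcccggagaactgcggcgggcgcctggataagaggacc
Il12rb2, chr6:67376139-67376438, minus strand: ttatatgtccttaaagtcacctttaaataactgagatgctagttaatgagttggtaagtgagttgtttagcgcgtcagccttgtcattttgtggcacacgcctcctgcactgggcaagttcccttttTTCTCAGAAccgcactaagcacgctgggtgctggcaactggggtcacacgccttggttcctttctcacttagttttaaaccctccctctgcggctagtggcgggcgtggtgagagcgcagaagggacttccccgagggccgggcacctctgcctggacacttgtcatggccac
Il23r, chr6:67491806-67492105, minus strand: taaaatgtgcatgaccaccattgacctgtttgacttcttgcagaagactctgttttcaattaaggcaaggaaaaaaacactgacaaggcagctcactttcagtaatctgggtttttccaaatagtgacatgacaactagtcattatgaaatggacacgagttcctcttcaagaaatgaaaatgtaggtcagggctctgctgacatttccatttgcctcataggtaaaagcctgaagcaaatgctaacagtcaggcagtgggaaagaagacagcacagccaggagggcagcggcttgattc
Of the 26 measured genes, 20 had an entry, with 23 windows. The Stat letters were found in the window of Il12rb2 and not in those of Il9r, Il17rb and Il23r. On either strand they occurred in 3 of the 23 windows (those of Il12rb2 and Il7r and 1 of the 3 windows of Il18r1) and in 8.3% of all 32851 windows. The letters GTCTAGAC, a palindrome that Smad proteins bind, occurred in 0 of the 23 windows and in 0.213% of all. The letters GAGGAAGT, bound by the myeloid factor PU.1, occurred in 1 of the 23, that of Il18rap, and in 3.2% of all. A match of letters describes the window and does not show that a factor binds there.

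The rest of the pathway was followed through 4 gene lists. Of 28 measured ligands of these receptors none was called between genotypes in spleen or MLN (limma), with an unadjusted p under 0.05 for 4 and 5 genes. Over all probe sets such a p was found for 16.2% in spleen and 11.9% in MLN, which also stand beside the counts of the lists that follow. The anti-inflammatory cytokine gene Il10 had the smallest p in both tissues. It averaged 7.34 in spleen Cre- and 8.0 in spleen Cre+ arrays (difference 0.67, adjusted p = 0.146), and 6.18 and 6.92 in MLN (0.74, adjusted p = 0.286). Of 16 measured kinases, Stats and adaptors none was called in either tissue (limma), with an unadjusted p under 0.05 for 4 genes in spleen and 3 in MLN. The smallest p there belonged to Stat2, which transmits interferon signals, in spleen (0.41, adjusted p = 0.132) and to the phosphatase gene Ptpn11 in MLN (0.39, adjusted p = 0.123). Of 16 measured inhibitors, which include the Socs feedback genes, none was called in either tissue (limma), with an unadjusted p under 0.05 for 4 genes in each. Ptpn1, a phosphatase of Jak kinases, came closest in both, at 0.28 (adjusted p = 0.134) in spleen and 0.43 (adjusted p = 0.128) in MLN. All 16 inhibitors had a positive difference in MLN, with a median of 0.24, where 66.7% of all probe sets were positive with a median of 0.08. Of the 4 measured partner chains outside the receptor list none was called (limma), and none had an unadjusted p under 0.05 in either tissue. The smallest p among them belonged to Csf2rb, the beta chain shared with the interleukin-3 and interleukin-5 receptors, at 0.31 (adjusted p = 0.584) in spleen, and to Lifr at 0.34 (adjusted p = 0.476) in MLN.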

How the data were processed

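Per the labels, the authors deposited gene-level expression values made with RMA in GeneSpring, which the range of the deposited values shows to be log2 values. No source used here gives the GeneSpring version, the probe annotation or the genome build. For MLN Cre+ samples the cell type field reads Cre-, against title, source and genotype, which were followed. Replicates of a group correlated at 0.982 or more across probe sets. Low values were shared exactly within tissues (median 7 of the 100 lowest) and by 0 pairs across tissues.

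Values were fitted as deposited with limma 3.58.1 (R 4.3.3): 4 group means over 12 arrays, 8 residual and 2.66 prior degrees of freedom, two-sided tests, Benjamini-Hochberg adjustment over 23332 probe sets, and a call at an adjusted p under 0.05. Adjusted p are from this fit, which was tested on simulated data, unless an alternative setting is named beside them. No depth applies to arrays, whose number limits the precision. Probe sets with 1 symbol were named through the platform annotation, the brightest for each gene. Receptor genes called between genotypes are described by array, otherwise the member of each receptor group with the smallest p. Between tissues, array values are given for Il12rb2, Il18rap, Il2ra and Il23r, and other receptor genes appear by their difference or within counts. Of other lists at most 3 called genes, or the 1 with the smallest p, are named. Il18r1 in spleen and further uncalled receptor genes were added to account for the members. Alternatives were quantile normalization, a median shift, array weights, a trended and robust prior, probe set filters, the compared groups alone, replicate blocks and leaving out each array. The members and gene lists were chosen with earlier results of these data known. Same-numbered arrays are not known to share animals, so no pairing was used. Their deviations correlated from -0.142 to -0.003 in spleen and from 0.001 to 0.31 in MLN. Arrays with different numbers gave -0.048 to 0.134 in spleen and -0.294 to 0.139 in MLN. Whether same-numbered MLN arrays shared a batch was not tested.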

Additional observations from a re-analysis of the deposited data

How the results depend on the processing

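The number of arrays, and low signal for the dim genes, limit these results. A trended and robust prior changed no call or direction among the receptor genes. Among 26 receptor genes, a sign change was counted where the value was called in at least 1 of the settings set side by side, the deposited scale or the alternative. The 3 spleen calls became 1 after quantile normalization, 5 with array weights, 0 with the spleen arrays alone and 1 with a replicate block within tissue; leaving out single arrays gave 1 to 2. In MLN 0 became 3 after quantile normalization, 1 with dim probe sets left out, 1 with 1-symbol probe sets and 4 with array weights, and 0 without any single array. The interaction count of 0 became 2 with array weights (Il17rb and Il18rap) and was 0 in all omissions of an array. Omissions gave 21 to 24 and 18 to 21 calls between tissues in Cre- and Cre+ mice.

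Counts over all probe sets moved too. In spleen, 507 became 286 (quantile), 2747 (array weights), 18 (spleen arrays alone) and 281 (replicate block within tissue), and 141 to 519 without single arrays. In MLN, 20 became 53 (quantile), 39 (without dim probe sets), 32 (1 symbol), 966 (array weights), 0 (MLN arrays alone), 2 (replicate block over all groups), 0 (replicate block within tissue), and 0 to 42 without single arrays. The interaction count of 38 became 74, 68 and 1007 without dim probe sets, with 1 symbol and with array weights, 10 and 0 with the replicate blocks, and 5 to 55 without single arrays. Between tissues, omissions gave 16478 to 17665 and 15558 to 16914 calls. The numbers of the titles are not known to pair samples, so the blocks were not used for the main calls. Tgfbr2 in spleen was called only with array weights (-0.23, adjusted p = 0.0477); omissions gave -0.25 to -0.22, and -0.15 to -0.07 in MLN.

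Reversed between tissues after quantile normalization were, in Cre- mice, Il4ra (0.42), Il3ra (0.75), Il6st (0.45) and Il12rb1 (0.26, and 0.29 after the median shift), and in Cre+ mice Il4ra (0.66), Il3ra (0.62), Il6st (0.46), Il12rb1 (0.39), Il10rb (0.0128) and Il18r1 (0.39). As deposited, Il12rb1 (-0.0069 in Cre- and -0.0064 in Cre+ mice), Il3ra (-0.19 and -0.17) and, in Cre+ mice, Il18r1 (-0.08) were not called. Il10rb in Cre+ mice was not called after quantile normalization. The cause of the sign changes was not tested.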
